A study of Mus musculus with 24 samples.

Results

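Chromatin immunoprecipitation followed by sequencing (ChIP-seq) mapped histone marks in mouse forelimb buds that had or lacked Sonic hedgehog (SHH), and 1201 limb-specific regions that carried active marks in both genotypes are described here. They were selected on the peak lists themselves. A region was a WT H3K27ac peak that overlapped, by at least 1 bp, a peak of Shh-/- H3K27ac, of WT H3K4me2 and of Shh-/- H3K4me2, and that overlapped no H3K27ac peak of NIH3T3 cells, a mouse embryonic fibroblast line. The 1201 regions were 2.42% of all 49679 WT H3K27ac peaks. "Limb-specific" means only that no peak was called at the place in NIH3T3 cells, and "active in both genotypes" only that the marks were called in each. The presence of these marks, and the ratios and ranks in the 6 lists, chose the regions and are given as a description.

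The limb samples were whole forelimb buds of E10.5 Swiss Webster embryos with 32 to 35 somites, several embryos pooled per sample. The mutants were homozygous for a Shh null allele, and by the study's methods the group labelled WT held wild-type and heterozygous littermates together. NIH3T3 cells were kept in low serum for 48 h with 400 nM purmorphamine, an agonist of the Hedgehog (HH) pathway, or with its solvent DMSO. H3K27ac was mapped in all 4 of these conditions, H3K4me2 in both limb genotypes and H3K27me3 in Shh-/- limb buds alone, while H3K27me3 in WT was not analysed here. Each of the 7 deposited lists was called once on 2 pooled replicates against input. No list belongs to a single replicate, so no value below has an error between replicates, and no difference between genotypes was tested. Limb and NIH3T3 H3K27ac also differed in the antibody and in the number of cells per immunoprecipitation, and these cannot be told apart from the cell type. In a whole bud, fewer cells carrying a mark and less mark per cell cannot be told apart.

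H3K27ac, acetylation of lysine 27 of histone H3, marks active enhancers and promoters, and H3K4me2 is found at regulatory DNA that is active or merely poised. H3K27me3 is laid down by the Polycomb repressor complex PRC2 at silenced developmental genes. The limb bud is built of mesenchyme under a thin ectoderm. T-box, Hox, Meis, Lhx, Msx and Alx genes, which encode transcription factors, give that mesenchyme its limb identity and its axes. SHH from the posterior margin acts on most of its own target genes by relieving repression by GLI proteins.

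Of the 1201 regions, 706 lay outside protein-coding promoters, and sequences of 7 of them are shown to give the reader what such a distal region looks like. They come from limb transcription factor genes with many regions outside promoters, and each is the 300 bases around the position of the highest WT H3K27ac signal of the best-ranked such region of that gene. All are plus-strand sequence of GRCm38, the assembly that mm10 names. The Msx2 sequence is chr13:53462775-53463074, between genes, and the Alx4 sequence is chr2:93696825-93697124, in an intron of the neighbouring gene Ext2. Those of Meis1 at chr11:18759625-18759924, Irx3 at chr8:91713475-91713774, Hand2 at chr8:56962325-56962624, Tbx4 at chr11:85917025-85917324 and Tfap2c at chr2:172661475-172661774 all lie between genes. Capitals mark exact matches, on either strand, to 6 motifs of limb transcription factors: the homeodomain core TAATTA, the MEIS/TGIF motif CTGTCA, the T-box motif AGGTGTGA the E-box CATCTG bound by TWIST and HAND factors with its variant CATATG, and the E-box CAGCTG bound by MYOD-type factors.
Msx2: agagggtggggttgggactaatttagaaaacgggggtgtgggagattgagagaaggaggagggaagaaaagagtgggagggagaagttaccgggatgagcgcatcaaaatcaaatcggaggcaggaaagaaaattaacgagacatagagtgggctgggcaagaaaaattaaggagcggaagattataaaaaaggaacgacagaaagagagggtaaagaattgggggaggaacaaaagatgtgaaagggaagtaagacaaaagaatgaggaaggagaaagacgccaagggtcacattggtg
Alx4: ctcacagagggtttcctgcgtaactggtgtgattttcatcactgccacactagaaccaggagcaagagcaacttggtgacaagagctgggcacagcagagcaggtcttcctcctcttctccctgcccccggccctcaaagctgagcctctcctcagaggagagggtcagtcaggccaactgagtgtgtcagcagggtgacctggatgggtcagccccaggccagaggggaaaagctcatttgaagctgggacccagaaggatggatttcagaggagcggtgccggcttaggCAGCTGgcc
Meis1: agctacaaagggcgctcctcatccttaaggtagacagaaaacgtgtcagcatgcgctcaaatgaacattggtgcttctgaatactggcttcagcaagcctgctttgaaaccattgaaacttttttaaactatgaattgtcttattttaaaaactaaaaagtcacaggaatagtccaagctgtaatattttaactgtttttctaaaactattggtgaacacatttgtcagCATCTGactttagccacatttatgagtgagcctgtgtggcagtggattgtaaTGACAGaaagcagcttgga
Irx3: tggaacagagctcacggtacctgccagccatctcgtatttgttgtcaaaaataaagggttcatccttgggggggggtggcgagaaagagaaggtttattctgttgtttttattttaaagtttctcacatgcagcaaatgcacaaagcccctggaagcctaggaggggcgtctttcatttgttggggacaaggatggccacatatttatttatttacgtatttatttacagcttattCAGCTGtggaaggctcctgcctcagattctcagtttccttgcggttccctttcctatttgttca
Hand2: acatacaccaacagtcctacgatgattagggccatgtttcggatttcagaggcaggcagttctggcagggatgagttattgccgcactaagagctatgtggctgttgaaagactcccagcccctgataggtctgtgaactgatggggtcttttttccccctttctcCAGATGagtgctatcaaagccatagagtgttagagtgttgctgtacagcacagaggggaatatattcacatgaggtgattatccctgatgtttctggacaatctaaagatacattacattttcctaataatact
Tbx4: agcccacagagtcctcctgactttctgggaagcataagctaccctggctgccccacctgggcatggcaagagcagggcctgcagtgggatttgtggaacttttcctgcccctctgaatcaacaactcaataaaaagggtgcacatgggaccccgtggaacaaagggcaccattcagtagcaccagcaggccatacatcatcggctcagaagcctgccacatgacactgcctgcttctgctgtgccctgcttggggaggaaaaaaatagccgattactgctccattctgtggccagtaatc
Tfap2c: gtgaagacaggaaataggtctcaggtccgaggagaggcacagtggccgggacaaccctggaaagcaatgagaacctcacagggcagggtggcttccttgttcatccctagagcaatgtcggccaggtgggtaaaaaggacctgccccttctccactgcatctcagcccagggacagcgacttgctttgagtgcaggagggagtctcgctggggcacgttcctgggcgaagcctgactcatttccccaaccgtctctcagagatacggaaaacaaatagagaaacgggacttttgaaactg
The Meis1 sequence held 1 MEIS/TGIF match and 1 CATCTG match, and the Hand2 sequence 1 CATCTG match, which reads CAGATG on the strand shown. The Alx4 and Irx3 sequences each held 1 CAGCTG match, and those of Msx2, Tbx4 and Tfap2c held none of the 6. Among the 300-base windows of all WT H3K27ac peaks, 17.0% held CTGTCA, 19.6% held CATCTG and 14.6% held CAGCTG, so a single match is common. A match is a description of the letters and not a bound site.

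The steps of the selection show where regions were lost. Of 49679 WT H3K27ac peaks, 25606 overlapped a Shh-/- H3K27ac peak, 11906 of those also overlapped WT H3K4me2, and 10430 overlapped all 4 limb lists. Most of the 10430 were also acetylated in NIH3T3 cells: 8920 (85.5%) overlapped peaks of both NIH3T3 lists and are called constitutive regions below, while 159 overlapped the DMSO list alone and 150 the purmorphamine list alone. The remaining 1201 (11.5%) are the limb-specific regions. The same rule started from the Shh-/- list gave 1254 Shh-/- peaks, of which 88.3% overlapped one of the 1201. Besides the constitutive regions, 2 other limb-specific sets serve for comparison. In 708 peaks both H3K4me2 lists and WT H3K27ac were present but Shh-/- H3K27ac was not called, and in 9326 peaks H3K27ac was present in both genotypes but H3K4me2 in neither.

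The limb-specific regions were wider and more strongly acetylated than a typical peak, which the demand for overlap in 4 lists favours. Their median width was 650 bp (range 100 to 15650 bp), against 250 bp for all WT H3K27ac peaks. The median of the authors' largest log2 ratio of H3K27ac ChIP to input was 3.89 in WT (2.42 to 7.49) and 3.73 in Shh-/- (2.34 to 7.04). For H3K4me2 the medians were 3.34 in WT and 3.39 in Shh-/-. The best-ranked decile of the WT list held 26.4% of the regions. Across the 1201 regions the WT and Shh-/- ratios had Pearson's r = 0.56 for H3K27ac and 0.61 for H3K4me2, while WT H3K27ac and WT H3K4me2 ratios had r = -0.11. The regions were chosen for having all 4 peaks, the genotypes share processing and neighbouring regions share one broad peak, so these correlations are a description.

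By WT rank the strongest limb-specific region was the promoter of Trim71 (chr9:114561400-114565349, rank 7), which encodes an RNA-binding protein of early embryos. Its H3K27ac log2 ratio was 7.49 in WT and 5.62 in Shh-/-, and its H3K4me2 ratio 3.77 and 4.96. Tbx5, the T-box gene required to start the forelimb bud, held the next. Its region chr5:119828400-119844049 covered the promoter and was the widest of all at 15650 bp, with H3K27ac ratios of 7.00 in WT and 7.04 in Shh-/- and H3K4me2 ratios of 4.27 and 4.80. A further Tbx5 region of 10950 bp at chr5:119795600-119806549, 30638 bp before the transcription start, had the best rank of all regions outside promoters, with H3K27ac ratios of 6.69 and 5.99. Both Tbx5 regions thus had strong peaks in both genotypes. The promoter of Zic2 (chr14:122475300-122479049), a zinc-finger gene, had H3K27ac ratios of 6.89 in WT and 5.90 in Shh-/-. Promoters of Auts2 and Chd7, which encode chromatin regulators, had H3K27ac ratios of 6.74 in WT and 5.42 in Shh-/- and of 6.54 and 5.11, and that of Tenm3, a cell adhesion gene, had 6.44 in WT and 6.85 in Shh-/-. The best-ranked distal regions also lay near Fam180a (6.52 and 5.09), Tut4 (6.44 and 6.17), Mex3b (6.42 and 5.18) and Fli1 (6.39 and 4.79) and in an intron of Cped1 (6.34 and 6.75), the values being the WT and Shh-/- H3K27ac log2 ratios.

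The position of the regions did not enter their selection. A promoter was defined as 2 kb before to 1 kb after a protein-coding transcription start. Limb-specific regions lay over a promoter in 495 of 1201 cases (41.2%, 95% Wilson interval 38.5 to 44.0%), against 27.6% of all WT H3K27ac peaks. Whether most regions lay outside promoters depended on the setting: the promoter share was 62.8% when 50% of the WT peak had to be covered in every list, 64.6% in the better-ranked 50% of every list and 50.7% with the starts of all genes. Constitutive regions lay over a promoter in 87.0% (86.2 to 87.6%), which put the limb-specific share of 41.2% at a difference of -45.7 percentage points (95% interval -48.6 to -42.9). The limb-specific share was the lower of the pair on 20 of 20 chromosomes, and ranged between 28.6% on chromosome 8 and 53.3% on chromosome 16, with a median of 39.6%. It lay below the 49.7% (46.0 to 53.4%) of the regions not acetylated in Shh-/-, and far above the 1.91% of acetylated peaks without H3K4me2. These intervals cover counting error only, and neighbouring regions are not independent.

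**Figure D1:**
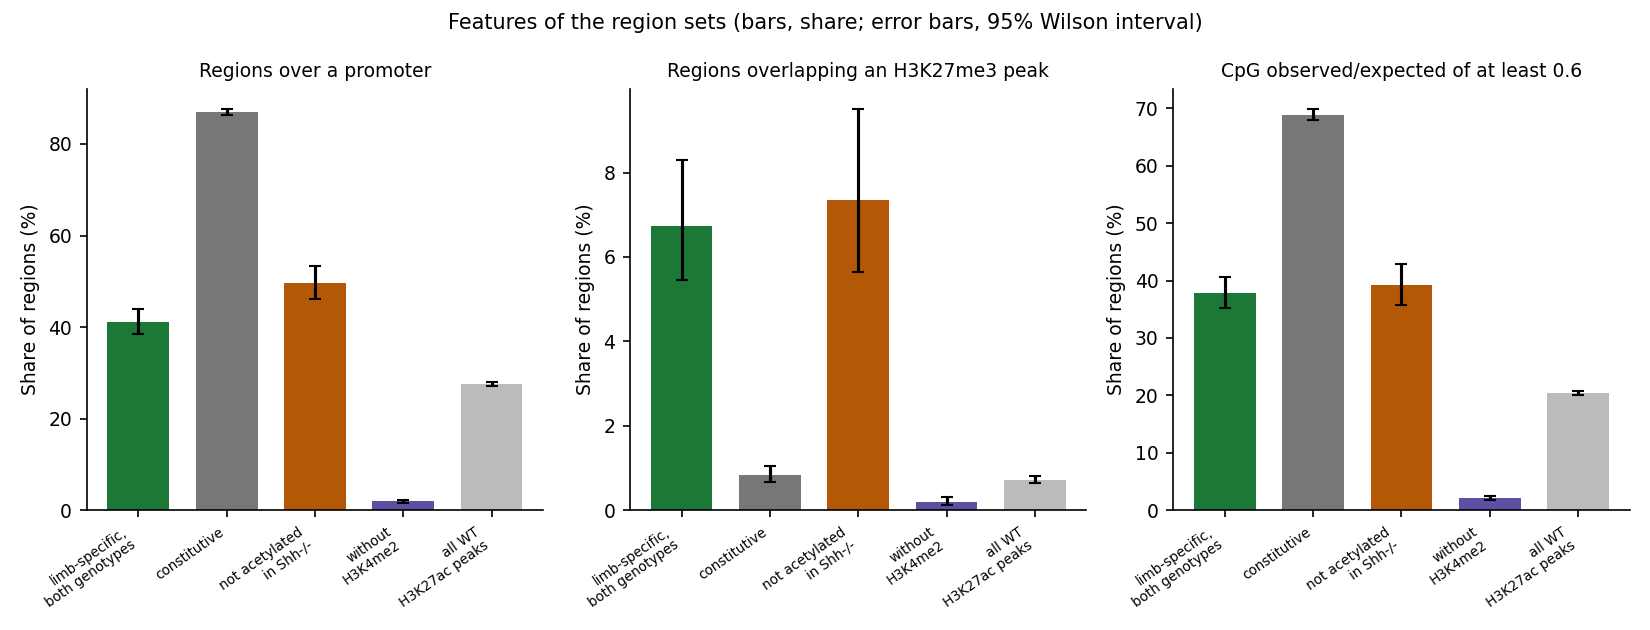
Percentage of regions over a protein-coding promoter, overlapping an H3K27me3 peak of Shh-/- limb buds, and with a CpG observed-to-expected ratio of at least 0.6 (vertical axes, percent) for the limb-specific regions, the 3 comparison sets and all WT H3K27ac peaks. Bars start at 0 and error bars are 95% Wilson intervals over regions; 41.2% of limb-specific and 87.0% of constitutive regions lay over a promoter, while 6.74% and 0.841% overlapped H3K27me3.

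Of the limb-specific regions, 470 (39.1%) lay between genes, 353 (29.4%) within an intron, 325 (27.1%) over an exon with untranslated sequence and 53 over other exons. The median distance from a region's maximum, the position of its highest WT signal, to the nearest protein-coding start was 3602 bp. Outside promoters it was 26154 bp, and 164 regions (13.7%) were more than 100 kb from any start. Their 300-base windows had a median GC content of 53.3%, and 37.9% (35.2 to 40.7%) had a CpG content typical of CpG islands, an observed-to-expected ratio of at least 0.6. That share was 68.9% in constitutive regions, 2.102% in acetylated peaks without H3K4me2 and 20.3% in all WT peaks.

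**Figure D2:**
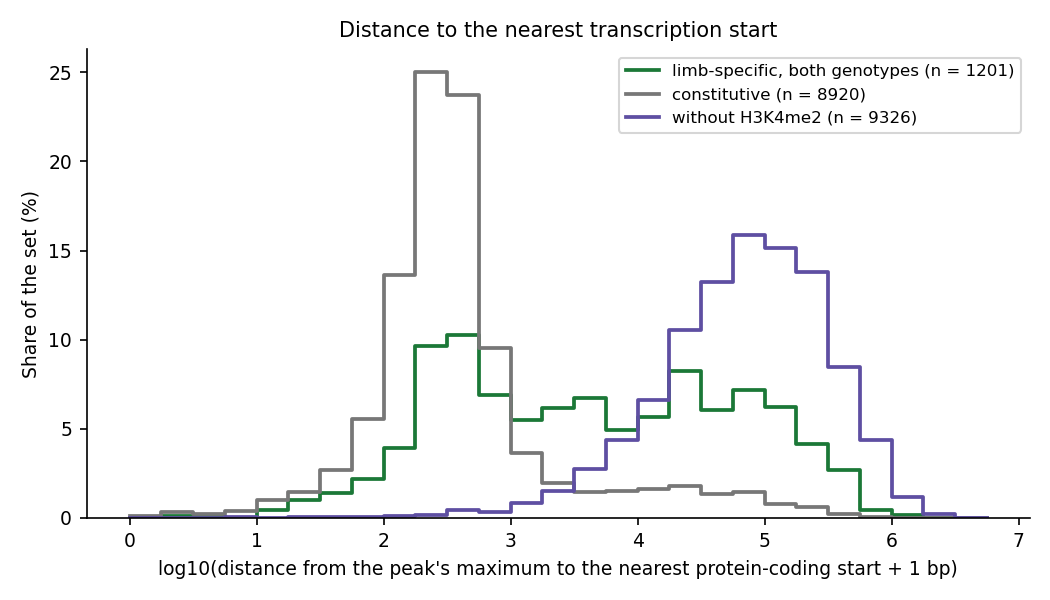
Distribution of the distance from each region's maximum to the nearest protein-coding transcription start (horizontal axis, log10 of the distance plus 1 bp; vertical axis, percent of the set in each bin) for the limb-specific regions, constitutive regions and acetylated peaks without H3K4me2. Constitutive regions gather near starts and peaks without H3K4me2 far from them, while the limb-specific regions, with a median of 3602 bp, spread over both ranges.

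The nearest protein-coding start of the 1201 regions belonged to 816 genes, or 3.74% of the 21827 genes of the annotation. Of these, 598 genes had 1 region, 127 had 2 and 91 had at least 3, which together held 349 regions. Limb patterning genes were well represented. Of 62 genes in 4 lists of limb transcription factors and regulators, 38 (61.3%) had at least 1 limb-specific region, and the 110 regions at them were 9.16% of all limb-specific regions. The same genes held 0.874% of constitutive regions and 2.28% of all WT H3K27ac peaks. These lists were drawn up with results of these data known, so the counts describe the regions and are no test.

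Of the limb field and growth genes, 18 of 22 (81.8%) had a region as nearest start, against 3.74% of all genes. The order of the lists depended on how genes were assigned: with the gene body and 20 kb on either side, 14 of 22 limb field genes (63.6%) and 15 of 18 distal and digit genes (83.3%) had one, against 4.65% of all genes. The genes so added to the distal count were Hoxa9, Hoxa10, Hoxa13, Hoxd9, Hoxd10, Hoxd12 and Hoxd13. They lie close together in their clusters, so the same region was counted for several of them. Hand2, which sets up the posterior domain that expresses Shh, had 6 regions. Irx3, an Iroquois factor of the early bud, had 4, and Tbx5, its hindlimb relative Tbx4 and the zinc-finger genes Sall1 and Zbtb16 had 3 each. Fgf10, Prrx1, Etv4 and Mecom had none. Among proximal genes 6 of 12 had a region, among them the TALE homeobox gene Meis1 with 5, and its relative Meis2 and Cyp26b1, which encodes the enzyme that degrades retinoic acid, with 3 each. None of the 8 regions at Meis1 and Meis2 lay over a promoter, and their maxima lay between 7890 bp and 331940 bp from the starts.

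Among distal and digit genes 8 of 18 (44.4%) had a region, against 3.74% of all genes, and this list held the gene with the most. Msx2, a homeobox gene of BMP-responsive mesenchyme and ectoderm, had 12, Lhx2, a LIM homeobox gene of the distal mesenchyme, had 7, Msx1 had 5, and Lhx9 and Tfap2c had 4 each. Among anterior genes 6 of 10 had a region, among them Alx4 with 7, Alx1 and Zic2 with 2 and Asb4 and Gas1 with 1. Alx4 and Alx1 encode homeodomain factors of the anterior bud. In the dorsoventral and ectoderm list 3 of 26 genes had a region. Lmx1b, the LIM homeobox gene that specifies dorsal limb mesenchyme, held 6 of its 8 regions, Dlx2 and Grhl2 had 1 each, and the ectodermal genes Wnt7a, En1, Fgf8 and Trp63 had none. Only 13 of the 26 genes were nearest to any WT H3K27ac peak. For the rest, Fgf8 among them, no region was possible.

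Signalling genes also held limb-specific regions, which 3.74% of all genes had. Of 36 BMP and WNT genes, 17 had one (47.2%), led by the WNT receptor gene Fzd10 with 8, the ligand genes Bmp7 with 5 and Bmp4 with 4, and Axin2, a feedback inhibitor of WNT signalling, with 4. Of 16 FGF signalling genes 8 (50%) had one, and none of these 11 regions lay over a promoter. The receptor gene Fgfr1 had 3 and Dusp6, a feedback phosphatase, 2. Of 17 chondrogenic genes 6 (35.3%) had one, with 4 regions at Col2a1, which encodes type II collagen of cartilage, 2 at Sox6 and 1 at Sox9.

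In the HH pathway list, 5 of 24 genes (20.8%) had a limb-specific region, against 3.74% of all genes. They were Hand2 with 6, Cdon, a coreceptor gene, with 3, Sall1 with 3, and Hoxd11 and Gas1, another coreceptor gene, with 1 each. Shh itself, its receptor gene Ptch1, the targets Gli1, Hhip and Grem1, and the mediators Gli2, Gli3 and Smo had none. Shh was nearest to no WT H3K27ac peak, so no region was possible there. The rule also left out WT peaks without a Shh-/- peak, which were 48.5% of all WT peaks. Such were 3 of 3 WT peaks at Gli1, where no region was possible either, 3 of 4 at Hhip and 17 of 22 at Grem1. They were 10 of 17 at Ptch1, 9 of 23 at Gli2, 17 of 36 at Gli3 and 2 of 3 at Smo. Of the 24 genes, 12 (50%) had a constitutive region as nearest start, against 30.6% of all genes.

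Markers of other cell types that a limb bud holds were examined as well. Muscle precursor markers 3 of 14 (among them Mef2c with 2 regions and Des with 1) and endothelial markers 3 of 21 had a region, which are 21.4% and 14.3%, against 3.74% of all genes. The endothelial regions were 3 at Fli1, 2 over the promoter of Lmo2 and 1 at Sox17, and the best-ranked, near Fli1, had an H3K27ac log2 ratio of 6.39 in WT and 4.79 in Shh-/-. The endothelial genes Cdh5 and Pecam1 had none, and Kdr, nearest to no WT H3K27ac peak, could have none. Blood markers (0 of 15) and neural and neural crest markers (0 of 17) had none either, but only 6 and 4 of these genes were nearest to any WT H3K27ac peak, so for the rest no region was possible, Gata1 and Klf1 among them. Fibroblast matrix and contractile genes (2 of 24, Col3a1 and Fn1) and housekeeping genes (0 of 27) are given for completeness. The reason is that the rule removed every region acetylated in NIH3T3 fibroblasts. Of the 27 housekeeping genes, 24 (88.9%) had a constitutive region, against 30.6% of all genes.

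**Figure D3:**
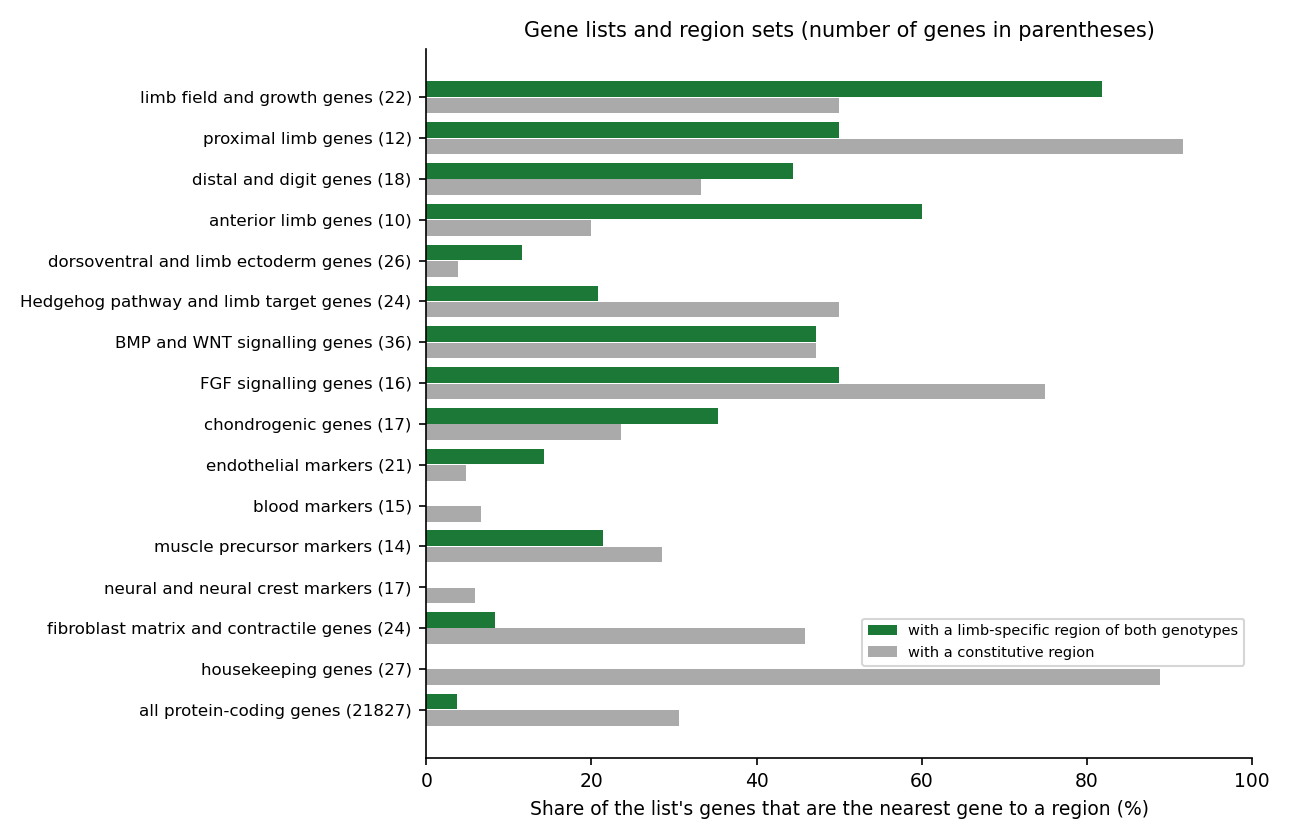
Percentage of each list's genes (horizontal axis, percent, bars from 0) that were the nearest protein-coding gene to at least 1 limb-specific region (green) or at least 1 constitutive region (grey), with the number of genes in parentheses and all 21827 genes in the bottom row. Limb field genes reached 81.8% for limb-specific regions, housekeeping, blood and neural genes stood at 0, and all genes at 3.74%.

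At several of these genes the regions were pieces of one broad domain, and the number of pieces differed between genotypes. At Msx2, the 12 limb-specific regions lay between chr13:53461850 and 53476999 and fell into 6 stretches, a stretch being a run of WT and Shh-/- H3K27ac peaks linked by overlap. These held 14 WT peaks but only 6 Shh-/- peaks. The best-ranked Msx2 region, chr13:53474850-53476999, just before the start, had H3K27ac log2 ratios of 4.82 in WT and 4.68 in Shh-/-. The region chr13:53471950-53472849 over an exon had 4.58 in WT and 5.71 in Shh-/-, and the distal region that holds the sequence shown, chr13:53462600-53464099, had 4.43 and 5.20. At Alx4, 6 WT regions near the start lay under a single Shh-/- peak of 5.85, while their WT ratios ran from 2.83 to 5.31, so 7 regions stood for 2 stretches. Fzd10 had 6 stretches from 8 regions, Lhx2 6 from 7 and Hand2 6 from 6. At Lmx1b, 4 stretches covered 33000 bp with 10 WT and 16 Shh-/- peaks, so there the Shh-/- list had the more pieces.

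**Figure D4:**
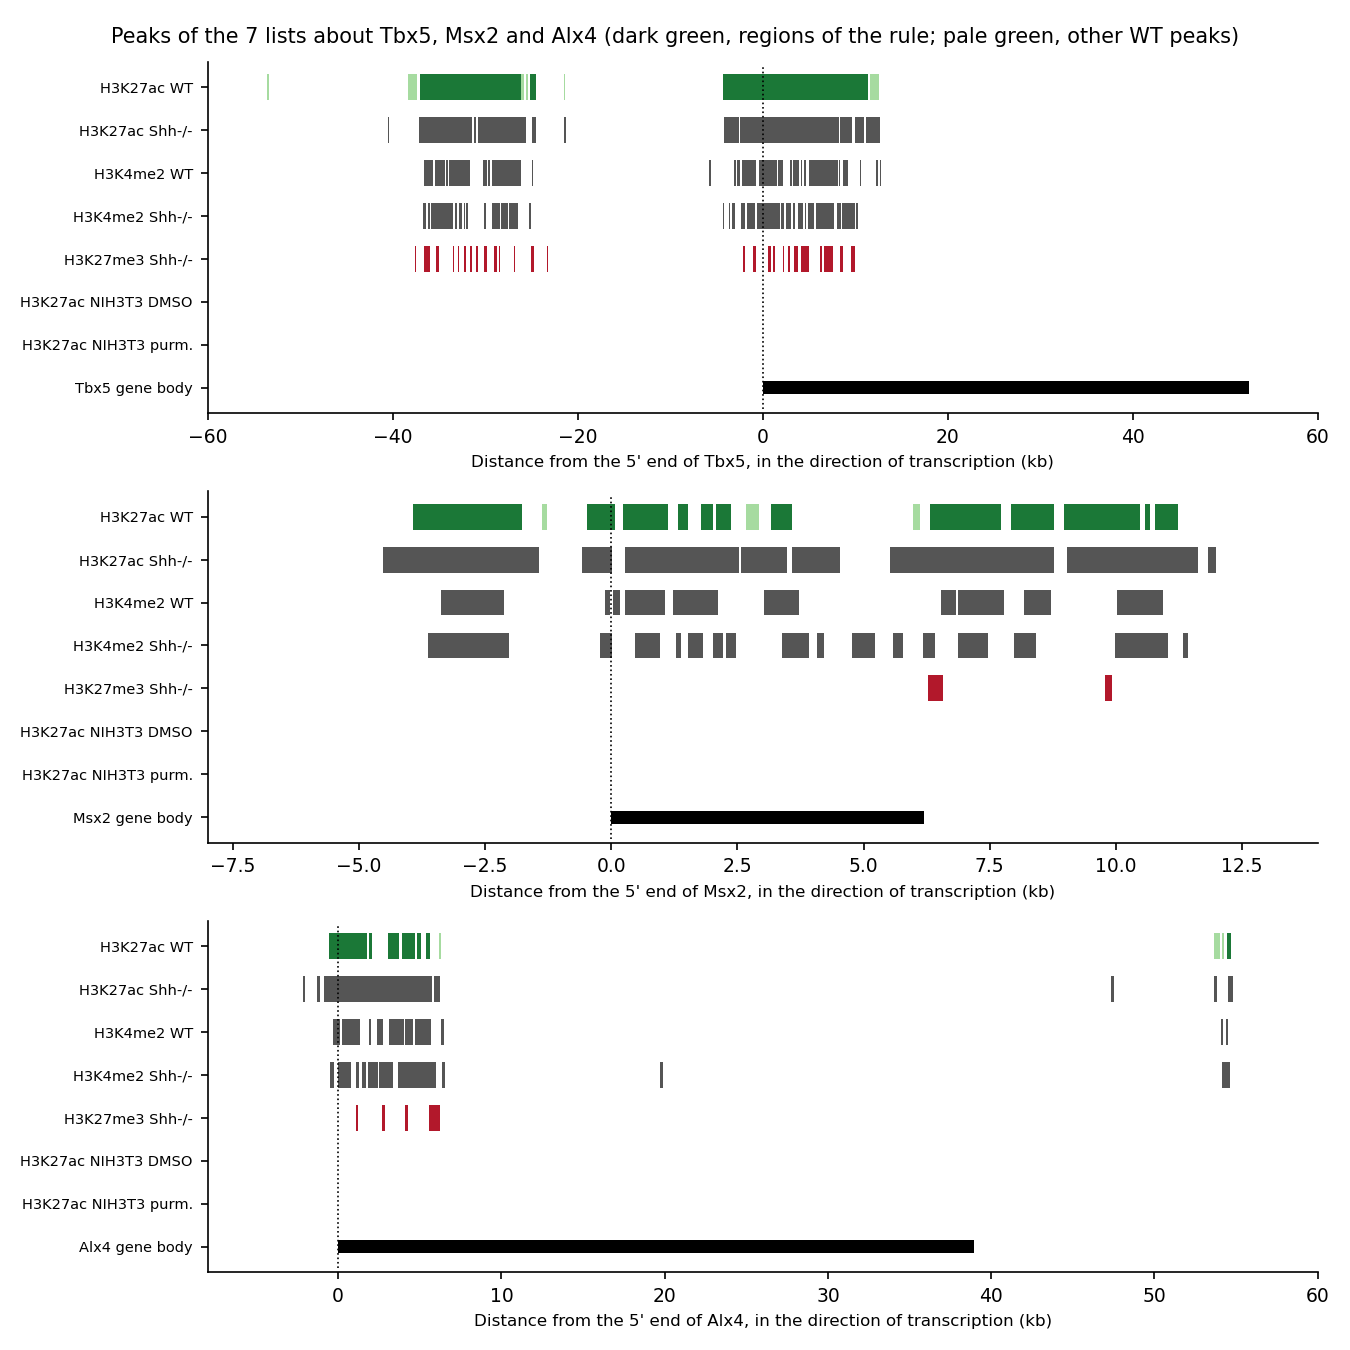
Peaks of the 7 lists around Tbx5, Msx2 and Alx4, 1 row per list and each bar as long as the peak, against distance from the 5' end of the gene (horizontal axes, kb); dark green bars are limb-specific regions, pale green bars other WT H3K27ac peaks and red bars H3K27me3 peaks. At Msx2 and Alx4 several WT regions lie over 1 Shh-/- peak, at Tbx5 a region of 15650 bp covers the start, and no NIH3T3 peak lies in any of the 3 windows.

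The largest run of limb-specific regions lay in the HoxB cluster. Hox genes encode homeodomain factors that pattern the body and limb axes. Runs were made of regions at most 50 kb apart, which gave 860 runs, of which 30 held at least 4 regions. The HoxB run held 19 regions within 70.5 kb, at Hoxb2 to Hoxb7. Over the whole HoxB cluster 32 WT H3K27ac peaks were called, and 0 of them overlapped a NIH3T3 peak. The nearest NIH3T3 peak lay 200.6 kb from the closest of the 19 regions. Their H3K27ac log2 ratios ran from 2.42 to 5.43 in WT (median 3.04) and from 2.50 to 5.94 in Shh-/- (median 3.72). The WT median was below the 3.89 of all 1201 regions, and the Shh-/- median was near their 3.73. Some WT regions shared a Shh-/- peak, whose ratio was then counted for each, so these medians do not compare levels. Both Hoxb6 regions took 3.72, and a 200-bp Hoxb3 region with 2.96 in WT took 5.58. Where WT and Shh-/- peaks were linked by overlap, the 7 Hoxb3 regions formed 5 stretches with a median WT minus Shh-/- difference of -0.15.

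The other Hox clusters differed from HoxB in the NIH3T3 lists. In HoxA, 36 of 43 WT peaks overlapped a NIH3T3 peak and 2 were limb-specific, one of them the broad region chr6:52242500-52249699 over Hoxa11 with H3K27ac ratios of 5.88 in WT and 5.24 in Shh-/-. In HoxC 8 of 21 WT peaks overlapped a NIH3T3 peak and 4 were limb-specific. In HoxD 9 of 33 did and 3 were limb-specific, while 23 WT peaks had no Shh-/- peak, which held for 48.5% of all WT peaks. The flanks of the clusters were examined after these values were seen. On the side of HoxD with higher coordinates, 5 limb-specific regions lay within 1000 kb, among 121 WT peaks of which 71 had no Shh-/- peak, against 48.5% of all. The best-ranked, chr2:75207550-75210949, was 442.4 kb from the cluster with ratios of 6.34 in WT and 4.39 in Shh-/-, and the next, chr2:75421750-75425699, was 656.6 kb away with 6.33 and 5.20.

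Overlap with H3K27me3, which the selection did not use, was more frequent in limb-specific than in constitutive regions. In Shh-/- limb buds 81 of 1201 limb-specific regions overlapped an H3K27me3 peak (6.74%, 5.46 to 8.31%), against 0.725% of all WT H3K27ac peaks and 75 of 8920 constitutive regions (0.841%, 0.671 to 1.05%). The difference was 5.90 points (95% interval 4.47 to 7.33). The limb-specific share was the higher on 17 of 20 chromosomes and the lower on 2, and ran from 0% on chromosome 16 to 12.1% on chromosome 2. Within promoters the shares were 8.28% and 0.606%, and outside them 5.67% (4.19 to 7.62%) and 2.41% (1.67 to 3.45%). Regions not acetylated in Shh-/- had a share of 7.34% (5.64 to 9.505%), whose interval overlapped that of the limb-specific regions.

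The 81 regions lay at 50 genes, and 42 of them at 22 genes of the 4 limb lists. At those limb genes 38.2% of limb-specific regions overlapped H3K27me3 (29.6 to 47.5%, 42 of 110), against 26.9% of constitutive regions (18.3 to 37.7%, 21 of 78), and the intervals overlapped. At all other genes the shares were 3.57% (2.63 to 4.85%) and 0.611% (0.468 to 0.796%). Regions not acetylated in Shh-/- had 37.1% at the limb genes (23.2 to 53.7%, 13 of 35) and 5.79% at other genes (4.27 to 7.82%). Their intervals overlapped those of the limb-specific regions at both kinds of gene, so the overlap is not particular to the latter. Lhx2 had H3K27me3 at 6 of its 7 regions, Hand2 at 4 of 6, Tbx5 at 3 of 3, Alx4 at 3 of 7 and Lmx1b at 3 of 6. Msx2 had it at 2 of 12, and Bcor, which encodes a component of a Polycomb complex, at 3 of 5.

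The best-ranked H3K27me3 overlap was at the Hoxd11 promoter (chr2:74682000-74683249), with an H3K27me3 log2 ratio of 5.01 beside H3K27ac ratios of 4.66 in WT and 3.82 in Shh-/-. Both regions of Gsc, the homeobox gene Goosecoid, followed with H3K27me3 ratios of 4.34 and 4.18. The 15650-bp Tbx5 region had an H3K27me3 ratio of 3.45 beside its Shh-/- H3K27ac ratio of 7.04. In 77 of the 81 regions the Shh-/- H3K27ac peak itself overlapped the H3K27me3 peak, so both marks were called at one place in the same genotype. Whether they sat in the same cells or in different cells of the bud cannot be told apart. The median H3K27me3 peak in the 81 was 600 bp wide against 150 bp for the whole H3K27me3 list, and 62 of the 81 overlapped an H3K27me3 peak with a false discovery rate under 0.05.

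The level of H3K27ac was compared between genotypes only as a description, since the presence of both peaks chose the regions. The WT minus Shh-/- difference of the largest log2 ratio had a median of 0.17 over the 1201 regions, and 544 (45.3%) were within 0.5 of 0. It was above 1 in 169 regions (14.1%), against 12.5% of all 25606 shared WT peaks, and below -1 in 116 (9.66%), against 8.38%. Both shares were thus near those of shared peaks in general. The regions with the most negative values were WT fragments of 100 to 550 bp at Ptk7, Tbx18, Cdon, Lhx9 and Prdm16, each under a larger Shh-/- peak whose maximum may lie outside the fragment. Whole stretches were therefore compared as well, a choice made after the data were seen. Over 1121 stretches with limb-specific regions the median difference was 0.25, with 172 (15.3%) above 1 and 47 (4.19%) below -1. The 8500 stretches with constitutive regions had a median of 0.34, and all 22895 shared stretches 0.23, with 13.9% above 1 and 3.87% below -1, so the shares of the limb-specific stretches were again near those of shared stretches in general.

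**Figure D5:**
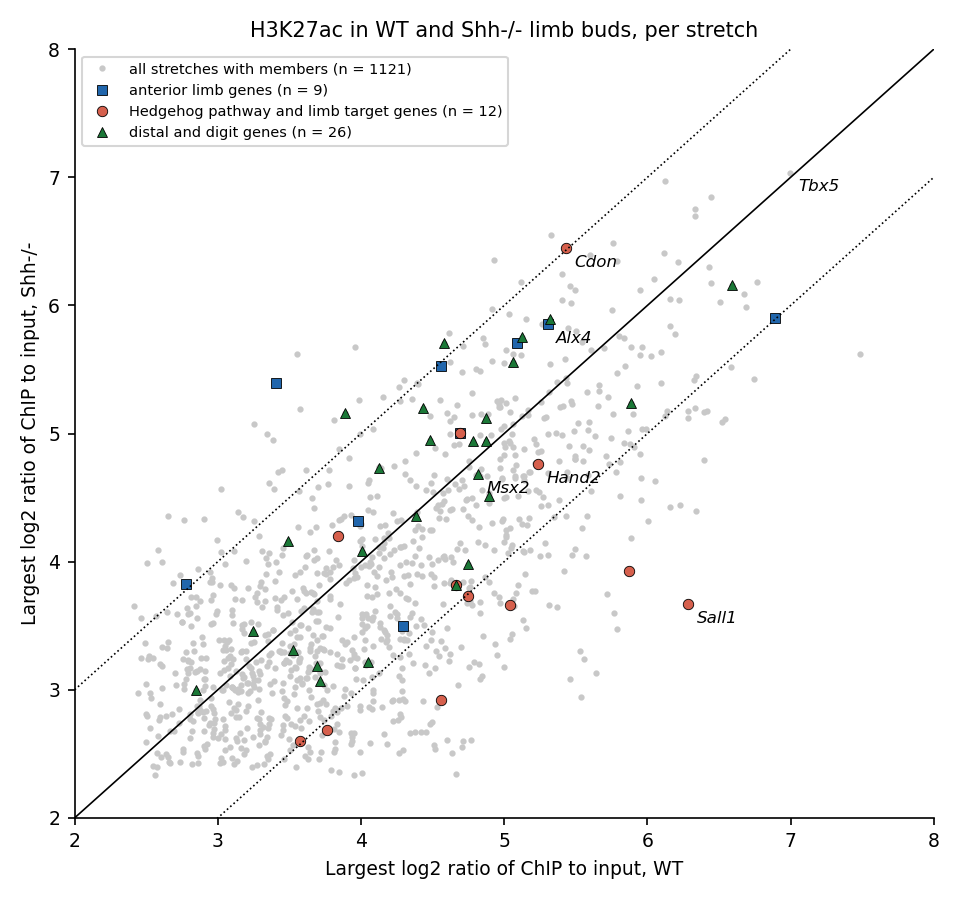
Largest H3K27ac log2 ratio of ChIP to input in Shh-/- (vertical axis) against WT (horizontal axis), 1 point per stretch of linked peaks that holds a limb-specific region, with lines for equal ratios (solid) and for differences of 1 (dotted) and with 3 gene lists in colour. Of 1121 stretches, 172 lie more than 1 towards WT and 47 more than 1 towards Shh-/-.

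By their medians, the stretches at HH pathway genes leaned towards WT and those at anterior genes towards Shh-/-, with exceptions in both lists. At the 5 HH pathway genes, 12 stretches had a median difference of 0.99, with 6 above 1 and 1 below -1. All 6 were at Sall1 and Hand2. The Sall1 region chr8:89040000-89042549, which overlaps an exon, had the largest difference of all, 2.62, with H3K27ac log2 ratios of 6.28 in WT and 3.67 in Shh-/- while its H3K4me2 ratios were 4.33 and 3.86. The 2 further Sall1 regions had 5.87 and 3.93, and 3.76 and 2.69. At Hand2, the region chr8:57333200-57334799 downstream of the gene had 4.56 in WT and 2.92 in Shh-/-, the promoter region chr8:57320000-57321749 had 5.04 and 3.66, and the distal region whose sequence is shown had 4.75 and 3.73. Hand2 also had stretches without such a fall, the lowest at -0.36. The stretch below -1 was that of Cdon, with 5.43 in WT and 6.45 in Shh-/-. The selection demanded peaks in both genotypes, so these stretches leave out WT peaks without a Shh-/- peak. Such peaks were 36 of 56 at Hand2 and 31 of 41 at Sall1, against 48.5% of all WT peaks.

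At anterior genes 9 stretches had a median of -0.55, with 0 above 1 and 2 below -1. One of these was the Alx1 promoter, with 2.78 in WT and 3.83 in Shh-/-. The stretch over the promoter of Alx4 (5.31 and 5.85) was also higher in Shh-/-, whereas that of Zic2 was higher in WT by 0.98. The other Alx4 stretch, which holds the sequence shown, was higher in WT by 0.80 (4.29 and 3.49). Limb field genes had 37 stretches with a median of 0.20, proximal genes 16 with 0.28, distal and digit genes 26 with -0.11, BMP and WNT genes 30 with 0.25 and FGF signalling genes 9 with 0.21. Hand2 and Sall1 are in both the limb field and the HH pathway list, and Gas1, whose stretch had -0.31, is in both the HH pathway and the anterior list. With 1 pooled list per genotype, none of these medians carries an error between replicates, and they are not shown to differ.

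Other stretches with large differences lay near genes outside the lists. The highest after Sall1 were near 4930502E18Rik (5.54 in WT and 2.94 in Shh-/-), near Lipe (5.64 and 3.13) and at the promoters of Hsd11b2, a steroid dehydrogenase gene (5.46 and 3.08), and Satb1, a chromatin organiser gene (4.67 and 2.34). Among the lowest were the promoters of Pth1r, the parathyroid hormone receptor gene (3.55 in WT and 5.62 in Shh-/-), and Nkd1, a WNT inhibitor gene (3.96 and 5.68), and places near Mgst2 (3.25 and 5.07) and Tbx3 (2.65 and 4.36).

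Distance to the nearest NIH3T3 peak showed how close the selection came to its threshold. The median distance was 28851 bp, 784 regions (65.3%) lay more than 10 kb from any NIH3T3 peak, and 168 (13.99%) lay within 1 kb of one. The regions nearest to exclusion, 1 bp from a NIH3T3 peak, were at Ralgps2 (WT H3K27ac log2 ratio 4.89), Sema5a (4.60), Fosb (4.16), Cdon (3.88) and St5 (3.81). Those just excluded overlapped a NIH3T3 peak by 50 bp, at Spin2c (5.10), Tcf7l2 (5.04), Lvrn (4.22), Kcnh2 (4.09) and Bub1b (4.03). In all, 30 peaks of the 4 limb lists overlapped a NIH3T3 peak by at most 50 bp.

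Short motifs were counted in 300-base windows outside promoters, in 706 limb-specific and 1164 constitutive regions, on both strands and with exact letters. The TFAP2 motif GCCNNNGGC was in 13.5% of limb-specific windows (11.1 to 16.2%) and 18.9% of constitutive windows (16.8 to 21.3%), intervals that did not overlap, but in 14.1% once the constitutive windows were weighted to the same GC content. For the other named motifs the intervals of the pair overlapped. The homeodomain core TAATTA stood at 7.22% (5.54 to 9.37%) and 5.58%, with 10.54% in all WT peaks outside promoters, CTGTCA at 17.3% and 14.3%, CATCTG at 18.3% and 18.5%, CAGCTG at 14.9% and 14.9%, and AGGTGTGA at 1.13% and 0.859%. The GLI motif GACCACCCA was in 3 of 706 limb-specific windows (0.425%, 0.145 to 1.24%) and 6 of 1164 constitutive windows (0.515%), a depth at which no difference was detectable. Since 26 motifs were counted and matches are descriptions, no motif is called particular to these regions.

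Starts of genes other than protein-coding ones account for some of the regions outside promoters. Of the 706, 114 lay over such a start, among them 43 of long intergenic non-coding RNAs, 22 of antisense genes and 8 of small nuclear RNAs, the RNA parts of the splicing machinery. The 8 ranked between 238 and 1554 in the WT list, on chromosome 12 near Eapp and on chromosome 3 near BC107364 and Fcgr1, and included Rnu1b2 (5.95 in WT and 4.65 in Shh-/-) and Rnu1b6 (5.64 and 4.98). They were 1.13% (0.575 to 2.22%) of the 706 against 1.804% (1.18 to 2.74%) of the constitutive regions outside promoters and 0.217% of all WT peaks there. These genes are nearly identical copies in clusters, so reads may not have been placed uniquely, and the part of that in their status as limb-specific was not tested.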

How the data were processed

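The data were peak lists from 24 ChIP-seq libraries (14 immunoprecipitations and 10 inputs), grouped by the sample labels. By the study's methods and labels the authors aligned reads to mm10 (Bowtie2 2.2.5 is named) and called peaks with CisGenome 2.1.0, entering both replicates of a condition together. Reads per library were not used here, so depth is unknown and precision is given as Wilson intervals over regions, which cover counting error only. For each peak the authors deposited a rank, coordinates, length, a false discovery rate (a q-value), a score on which the rank is ordered, the largest ChIP-to-input log2 ratio, and −log10 of the smallest Poisson p-value. The deposited scores began at 3.00 and the −log10 values at 5.00 in each of the 7 lists, but the highest false discovery rate ran from 0.000805 (NIH3T3, purmorphamine) to 0.255 (H3K27me3). Coordinates are as deposited, and whether they count from 0 or 1 is not given in the sources used here, which can shift a position by 1 bp.

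The rule was applied in python 3.11.15 with pandas 2.3.3 and checked with bedtools 2.31.1, which gave the same 1201 regions, and the code was tested on simulated data. Each region was assigned to the nearest protein-coding start of the basic GENCODE annotation vM21 of GRCm38, within whose chromosomes all peaks lay. Where a region overlapped several peaks of a list, the largest log2 ratio was taken. Motifs were exact matches in the 300 bases around the region's maximum. The regions, gene lists and motifs were chosen with earlier results of these data known. Named were the 15 genes with most regions, up to 4 genes per list, the 10 best-ranked regions in all, outside promoters and by H3K27me3, the 5 most different between genotypes in each direction, and the 5 on either side of the NIH3T3 threshold. Further genes of a list are named only to complete its count, and the Hox clusters, the small nuclear RNA genes and single Hedgehog genes were picked after values were seen. Some of the items that this rule names are not reported here. With pooled lists no test between conditions was made. Alternatives for overlap, threshold, list size, promoter, motif window and gene assignment are given in the closing section. No per-sample column was left unmapped.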

Additional observations from a re-analysis of the deposited data

How the results depend on the processing

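The differences from constitutive regions in promoter and H3K27me3 share kept their sign in every alternative run for them. The count of 1201 regions moved to 573 when 50% of the WT peak had to be covered in every list, 1844 when peaks up to 500 bp apart were taken as shared, and 446 in the better-ranked 50% of every list, and lay between 1002 and 1363 in the others. The promoter share of 41.2% moved under the same 3 settings to 62.8%, 33.5% and 64.6%, and to 44.7% with a false discovery rate under 0.05, 44.9% with lists of equal size, 34.5% with promoters of 500 bp on either side and 50.7% with starts of all genes. The H3K27me3 share of 6.74% moved to 10.99% in the better-ranked 50% and 5.16% with H3K27me3 peaks under a false discovery rate of 0.05, and lay between 5.80% and 7.55% otherwise. Its difference from constitutive regions, 5.90 points, was 7.68 within promoters and 3.26 outside them, and 5.67 with constitutive regions weighted to the same widths, which left the promoter difference at -44.6. With stretches in place of regions, an alternative chosen after seeing the data, the number below -1 in WT minus Shh-/- fell from 116 to 47. With genes assigned by gene body and 20 kb on either side, the number of genes with a region moved in 5 of 15 lists. Among these the distal list rose to 15 of 18, through neighbouring Hox genes, and the FGF list fell from 8 to 4 of 16. The limb field list fell to 14 of 22, a smaller change that was not counted as moved. Motif differences from constitutive regions were here taken over all regions, whereas the motif shares above were taken outside promoters only. Of these 26 differences, 10 moved when weighted for GC and 7 changed sign. No motif named above changed sign with this weighting, and the widest of the sign changes was GATA, from 2.84 to -0.72 points. Named motifs were among those that moved, such as TAATTA, from 2.73 to 0.55 points, and CATCTG. The widest change of all was that of TFAP2, from -9.79 to -0.101 points. The cause of these changes was not tested.

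No paired analysis was possible because each list pools both replicates of a condition. Leaving out a replicate was not run for the same reason.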
